A study of Mus musculus with 5480 samples.

Results

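Integrins are the receptors through which cells hold on to the matrix around them. Each is a pair of 1 α and 1 β subunit, and the α subunit largely sets which ligand is bound. The α1 and α11 subunits bind collagens. The α5, α8 and αv subunits recognise a short peptide motif in fibronectin, nephronectin, vitronectin and the latent form of TGF-β. The α4 and α9 subunits share ligands such as VCAM-1, tenascin C and osteopontin, α7 binds laminins in muscle, and β1 is the partner of all of these α subunits, while β5 pairs with αv. In the lung these receptors anchor fibroblasts and contractile cells while the alveoli are being formed.

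The 10 genes described here, Itga1, Itga4, Itga5, Itga7, Itga8, Itga9, Itga11, Itgav, Itgb1 and Itgb5, were taken by name from a deposited table of 18072 genes. All 10 were rows of the table, which also held 17 other integrin subunits. They were followed in single mesenchymal cells sorted from the distal lung of mice, across every cell subtype named in the labels, across age and under hyperoxia, the breathing of oxygen-enriched air. There were 5 groups, each of 1 female and 1 male mouse. Mice that breathed normal air were taken before birth on embryonic day 18.5 (E18.5) and on day 1 (P1), day 7 (P7) or day 21 (P21) after birth, and the fifth group was kept in hyperoxia and taken at P7. Strain, genotype, oxygen level and length of exposure were not given in the sources used here. Throughout, 2 values given for a group are those of the female and the male mouse, in that order.

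The table held 5480 cells of 10 mice, 311 to 633 per mouse, with 39358 to 5177020 reads per cell and a median of 774305. The values count reads and not molecules, since the labels name no molecular identifier. Cells were summed per mouse. In all, 6 classes were followed over age and hyperoxia: alveolar and adventitial fibroblasts (early and later labels joined), myofibroblasts, airway smooth muscle (early and later labels joined), vascular smooth muscle and pericytes. A class entered with at least 10 cells of a mouse, which gave 50 libraries of 14 to 393 cells. No hyperoxia library of pericytes, no E18.5 library of airway or vascular smooth muscle, and no E18.5 or P21 library of myofibroblasts reached 10 cells. All alveolar cells at P7 carried the early label, and 181 of 182 and 69 of 74 at P21 the later one. Of adventitial cells in normal air 49 of 50 and 55 of 56 carried the early label at P7, and 153 of 161 and 85 of 86 the later one at P21. In the joined classes P21 against P7 was therefore also a change of label, whose part in the members' changes was not tested. By median, the summed markers of alveolar and adventitial fibroblasts, vascular smooth muscle and pericytes were highest in their own class. Pericyte markers reached 5341 to 8234 CPM (counts scaled to a common library total) in pericytes and at most 2785 CPM in any other class. Airway markers, which include general muscle genes, reached 8958 to 23200 CPM in airway and 12180 to 27660 CPM in vascular smooth muscle. Myofibroblast markers had a median of 14795 CPM in myofibroblasts, below 27465 in airway and 19175 in vascular smooth muscle. Alveolar markers overlapped between alveolar (from 3005 CPM) and adventitial fibroblasts (up to 4849 CPM). Adventitial markers overlapped between adventitial fibroblasts (from 1600 CPM) and airway smooth muscle (up to 4230 CPM). Vascular markers overlapped between vascular (from 12350 CPM) and airway smooth muscle (up to 16940 CPM). With 1 mouse of each sex per group, p-values measure the spread between these mice. Nearly all cells of the 4 males in normal air came from 1 sequencing run, and nearly all of the E18.5 and P1 females from another. The P7 female in normal air (604 of 606 cells) and the P21 female (517 of 524 cells) each came from a further run. In females P7 against P1 and P21 against P7 were therefore also changes of run. All cells of the hyperoxia female, and 542 of the hyperoxia male's, came from runs that held no mouse in normal air, and the other 9 of that male shared a run with such mice. Apart from these 9 cells, run and hyperoxia cannot be told apart. Of the 5480 cells 5409 came from the mesenchymal sort, while 69 were labelled as from a CD31 sort and 2 from a CD45 sort, made for endothelial and immune cells, and these were kept in the sums.

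Measured per gene length in the class libraries, Itgb1 was the most abundant member, with a median of 424 TPM (reads scaled by exon length and by the library total), followed by Itgb5 at 131 TPM. The α subunits were lower: medians were 23.3 TPM for Itga9, 23.0 for Itga8, 20.2 for Itga5, 14.9 for Itga1, 11.9 for Itgav, 0.869 for Itga11, 0.418 for Itga4 and 0.180 for Itga7. Itga1 was highest in pericytes, Itga8 in alveolar fibroblasts and Itga9 in the precursor of myofibroblasts and smooth muscle, in airway smooth muscle and in myofibroblasts. Itga4 and Itga7 were found in vascular smooth muscle and pericytes, and Itga11 in adventitial fibroblasts at P21 and in vascular smooth muscle. Itga5 and Itgav had no class of their own. The sources used here do not say how the subtype labels were made, and they are taken to rest on expression, so these differences between subtypes are described without a test.

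**Figure D1:**
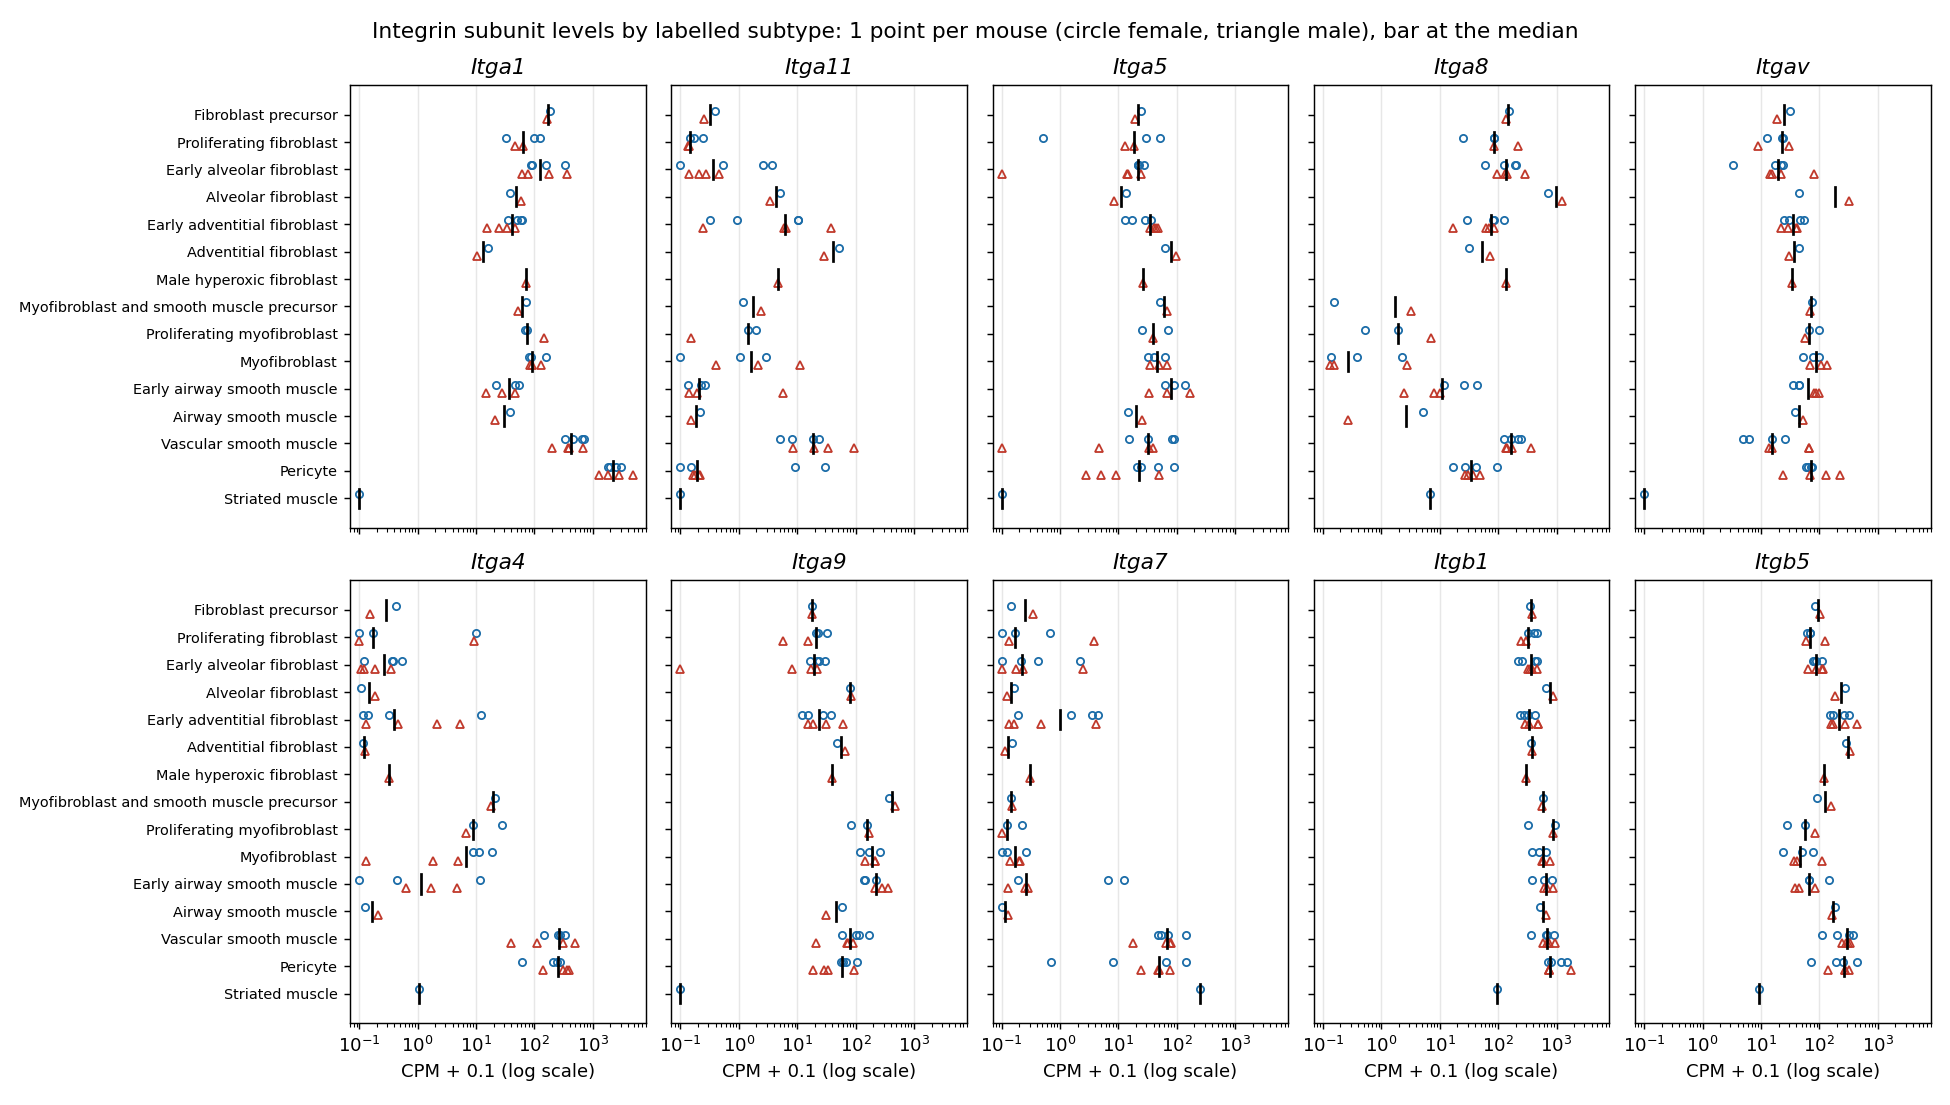
Level of each integrin subunit in every cell subtype (TMM-normalized CPM + 0.1, log axis); each point is 1 mouse with at least 10 cells of the subtype (blue circle female, red triangle male), all ages and hyperoxia together, and the bar is the median. The 8 pericyte libraries hold Itga1 at 1284 to 4947 CPM, above every other subtype, while Itgb1 stays within 222.9 and 1783 CPM in every subtype except striated muscle.

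Changes with age and hyperoxia were tested within each class, with edgeR's quasi-likelihood test on summed reads, a term for sex and Benjamini-Hochberg adjustment over all genes of the comparison. A gene was called at an adjusted p under 0.05. Of 190 member tests 185 could be run, and 2 gave a call. The groups did not overlap in 81 of them, and over all genes and these comparisons in 40.4% of tests, so a lack of overlap, where given below, is common to many genes. A permutation of 2 mice against 2 cannot go below an exact p of 0.333, so no such test is given per member.

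Among alveolar fibroblasts 1 of 10 members was called at P1 against E18.5 (6.16% of all genes), 0 at P7 against P1 (0% of all genes), 0 at P21 against P7 (0.0702%) and 0 in hyperoxia (0%). For the last 3 comparisons the members with an unadjusted p under 0.05 numbered 1 (2.36% of all genes), 4 (7.13%) and 0 (2.68%). DESeq2 called 1, 3 and 0, and limma voom 0, 1 and 0. Among adventitial fibroblasts 0 of 10 members were called at P1 (0.17% of all genes), P7 (0%), P21 (0.124%) and in hyperoxia (0%). Their unadjusted p was under 0.05 for 1 (9.23% of all genes), 1 (5.6%), 3 (10.2%) and 3 members (8.01%), and DESeq2 called 0, 1, 3 and 1 where voom called 0. Myofibroblasts had 0 of 9 members called at P7 against P1 (0% of all genes) and in hyperoxia (0%), with 1 (8.01%) and 0 (6.33%) at an unadjusted p under 0.05 and 0 by DESeq2 and voom.

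Airway smooth muscle had 0 of 9 members called at P7 against P1 (0% of all genes), 1 at P21 against P7 (1.13%) and 0 in hyperoxia (0%). For the comparisons without a call, 0 (5.25% of all genes) and 2 members (3.1%) had an unadjusted p under 0.05, and DESeq2 and voom called 0. Vascular smooth muscle had 0 of 10 members called at P7 against P1 (0%), P21 against P7 (0.0886%) and in hyperoxia (0%), with 0 (3.73%), 1 (7.21%) and 0 (2.57%) at an unadjusted p under 0.05. DESeq2 called 0, 1 and 0 of them and voom 0. Pericytes had 0 of 10 called at P1 against E18.5 (0.042%), P7 against P1 (0%) and P21 against P7 (0.0504%), with 0 in each at an unadjusted p under 0.05 (5.4%, 3.99% and 4.66% of all genes) and 0 by DESeq2 and voom. In these 17 comparisons DESeq2 called 126 to 1060 genes and voom 0 to 248, of 11894 to 15670 tested. With 9 or 10 members a single call is too few to set against these shares, and changes given below without a stated call did not pass the test.

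Itga1 encodes the α subunit of the receptor for basement membrane and fibrillar collagens. Over all subtypes it was highest in pericytes, at a median of 2220 CPM (1284 to 4947 in 8 mice), and next in vascular smooth muscle, at 425 CPM (198 to 697 in 8 mice). These ranges overlapped neither with each other nor, for vascular smooth muscle, with that of the third subtype, the fibroblast precursor, at 182 and 165 CPM. With every cell thinned to 100000 reads, 98.6 to 100% of pericytes held at least 1 Itga1 read (100% before thinning), and 168 shallower cells of all kinds were left out of such shares. Early alveolar fibroblasts followed with 60.2 to 363 CPM, a range that overlapped with that of vascular smooth muscle. Adventitial fibroblasts at P21 were near the bottom with 16.1 and 10.5 CPM.

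Within pericytes, on the scale of the fit of that class, Itga1 stood at 1887 and 1257 CPM at E18.5 and at 1985 and 1784 CPM at P1. At P7 it was 2433 and 2749 CPM, and at P21 2740 and 4516 CPM. The P7 mice were both above the P1 mice, and the other neighbouring ages overlapped. The log2 differences between neighbouring ages were 0.26, 0.46 and 0.48, with adjusted p of 0.981, 1 and 0.970 in edgeR's quasi-likelihood test.

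In alveolar fibroblasts Itga1 fell across birth. The E18.5 libraries held 355 and 369.7 CPM, and the P1 libraries 84.7 and 59.3 CPM. The groups did not overlap, and the log2 change was -2.33 (SE 0.544), with an adjusted p of 0.0473 in edgeR's quasi-likelihood test and log2 changes of -2.06 within females and -2.63 within males. Over all genes the median log2 change of this comparison was 1.36, and with RLE size factors 1.14, under which Itga1 changed by -2.56 (adjusted p 0.0415). The E18.5 libraries held 14 and 24 cells, and in the female a single cell gave 54.3% of the Itga1 reads. They held 3123998 and 13571674 reads in all, against 215725933 and 380641721 at P1. The E18.5 female's median was 104871 reads per cell. Of the 966 genes called in this comparison, 956 were higher at P1 and 10 lower. Without the cell holding most reads in each library, an alternative chosen after seeing the data, E18.5 held 162 and 250 CPM and P1 78.6 and 55.7 CPM. Here and below, that cell's reads of the gene were taken off while the library total was kept. Log2 changes given without that cell compare group means with 0.5 CPM added, and were neither fitted nor tested.

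Pericyte markers were also higher in both E18.5 libraries. The 6 of them summed to 119 to 284 CPM in the E18.5 alveolar libraries against 17.2 to 24.6 CPM at P1, with 2 and 0 of them at 0. Epithelial and immune sums of the E18.5 mice lay 1 below and 1 above the P1 values. Epithelial markers summed to 25.9 to 1031 CPM at E18.5 and 100 to 121 CPM at P1, and immune markers to 9.36 to 318 CPM against 18.3 to 23.1 CPM. Their part in the result was not tested. Over 8 other settings the adjusted p of Itga1 ran from 3.17e-05 to 0.572, with a call in 4, and over 10 fits that each left out 1 mouse from 0.0114 to 0.390, with a call in 2.

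Later changes of Itga1 in fibroblasts did not pass the test. Alveolar fibroblasts held 153 and 175 CPM at P7, above both P1 mice (log2 change 1.18, SE 0.526, adjusted p 1), and 35.1 and 66.0 CPM at P21, below both P7 mice (log2 change -1.71, SE 0.534, adjusted p 0.569). In hyperoxia they held 92.8 and 74.7 CPM, below both P7 mice in normal air (log2 change -0.97, adjusted p 1). Adventitial fibroblasts held 55.4 and 32.9 CPM at P7 and 15.6 and 9.93 CPM at P21, again without overlap (log2 change -1.78, SE 0.622, adjusted p 0.407). The other 15 changes of Itga1 lay between -0.99 and 0.61.

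Itga11 encodes the second collagen-binding α subunit of the set and was sparse. It had at most 3 reads in 12 of 50 class libraries, and in 32 of the 47 libraries with a read more than 50% of the reads came from 1 cell. Adventitial fibroblasts held 10.3 and 35.9 CPM at E18.5, 0.806 and 5.56 CPM at P1, 0.202 and 0.135 CPM at P7, and 46.2 and 26.7 CPM at P21. Both P7 mice were below all other adventitial libraries, and both P21 mice above those at P7 by a log2 change of 7.77 (SE 1.49, adjusted p 0.0944). DESeq2 gave an adjusted p of 7.31e-11 for that difference, the highest of 9 settings was 0.0988, and without the E18.5 female edgeR's quasi-likelihood test gave 0.0468.

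At P21 the female's adventitial reads of Itga11 were spread over cells, with 9.26% from the cell holding most, while in the male that cell gave 35.1%. After thinning, 21.2% and 7.14% of P21 adventitial fibroblasts held an Itga11 read (27.5% and 10.6% before thinning). The difference of P1 from E18.5 was a log2 change of -2.91 (SE 1.19, adjusted p 0.524), and the E18.5 female's reads all came from 1 cell. Hyperoxic adventitial fibroblasts held 9.56 and 6.02 CPM, above both P7 mice in normal air (log2 change 5.54, SE 1.36, adjusted p 0.519).

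In vascular smooth muscle Itga11 was uneven between mice of a group. It was 17.8 and 8.10 CPM at P1, 4.91 and 90.5 CPM at P7, 7.67 and 33.0 CPM at P21 and 21.9 and 17.7 CPM in hyperoxia. Groups overlapped in each comparison, with a log2 change of 1.11 at P7 against P1 (SE 2.09, adjusted p 1) and -1.02 at P21 against P7 (SE 1.81, adjusted p 0.944). In pericytes a single cell of the P1 female gave 30.6 CPM, and the other 7 libraries held 0 to 8.13 CPM. The fitted log2 changes around that age were 5.42 and -5.49 (SE 5.54 and 5.22, adjusted p 0.914 and 1 in edgeR's quasi-likelihood test). Without the cell holding most reads in each library, the unfitted log2 differences of group means were 0.00 and 0.05.

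Itga5 encodes the fibronectin receptor's α subunit. Its highest median was in adventitial fibroblasts at P21, at 62.8 and 97.7 CPM, followed by early airway smooth muscle at 32.6 to 164 CPM, and neighbouring subtypes overlapped down the whole order apart from the last. In airway smooth muscle both mice were lower at each later age. Itga5 was 137 and 165 CPM at P1, 86.3 and 32.3 CPM at P7 and 14.1 and 25.1 CPM at P21, with no overlap between neighbouring ages. The log2 changes were -1.36 (SE 0.626, adjusted p 0.919) and -1.59 (SE 0.639, adjusted p 0.425), and hyperoxia gave 63.3 and 68.6 CPM, between the P7 mice in normal air.

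Adventitial fibroblasts, nearly all under the early label at P7 and the later one at P21, went the other way after P7 in both mice. Their Itga5 was 16.8 and 45.8 CPM at E18.5, 34.7 and 41.4 CPM at P1, 11.9 and 33.2 CPM at P7, 26.8 and 38.7 CPM in hyperoxia and 54.7 and 92.5 CPM at P21. The P21 mice were above all others, and the log2 change from P7 was 1.81 (SE 0.563, adjusted p 0.359). DESeq2 gave 0.0218 and the highest of 9 other settings 0.468. Myofibroblasts held 68.2 and 74.1 CPM at P1 and 34.7 and 36.8 CPM at P7, without overlap (log2 change -0.99, adjusted p 0.629).

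Where few cells carried Itga5, the mice of some groups disagreed. The E18.5 male alveolar library had no read, which allows up to 0.221 CPM, against 22.6 CPM in the female and 21.9 and 13.6 CPM at P1 (log2 change 1.28, SE 1.97, adjusted p 0.761). The P1 male vascular library had none either, which allows up to 0.284 CPM, against 81.0 CPM in the female and 14.7 and 38.0 CPM at P7 (log2 change 1.42, SE 3.01, adjusted p 1), and the within-sex changes had opposite signs. Pericytes held 49.0 and 48.7 CPM at E18.5, 90.3 and 2.58 CPM at P1, 23.6 and 4.86 CPM at P7 and 18.7 and 8.15 CPM at P21. Their log2 changes were -1.29 at P1 (SE 1.98, adjusted p 0.978) and -1.22 at P7 (SE 1.81, adjusted p 1).

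Itga8, whose product binds nephronectin, separated the fibroblast precursor from the precursor of myofibroblasts and smooth muscle before birth. Fibroblast precursors at E18.5 held 157 and 139 CPM, while precursors of myofibroblasts and smooth muscle held 0.0548 and 3.18 CPM, and myofibroblasts at later ages 0.0331 to 2.61 CPM. Alveolar fibroblasts at P21 stood above every other subtype without overlap, at 714 and 1238 CPM on the subtype scale. Among contractile labels vascular smooth muscle held most, with 126 to 367 CPM in 8 mice.

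Alveolar fibroblasts held Itga8 at 64.1 and 95.8 CPM at E18.5, 194 and 131 CPM at P1, 196 and 286 CPM at P7 and 662 and 1208 CPM at P21 on the scale of the class fit. Both mice were above those of the preceding age each time. The log2 changes were 1.09 at P1 (SE 0.453, adjusted p 0.223), 0.51 at P7 (adjusted p 1) and 1.94 at P21 (SE 0.459, adjusted p 0.418). At P21 DESeq2 gave an adjusted p of 0.00621 and voom 0.0267, while the highest of 9 other settings was 0.455, and over fits without 1 mouse the range was 0.0712 to 1. The cell with most reads gave 3.23% and 13.3% of Itga8 reads at P21.

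**Figure D2:**
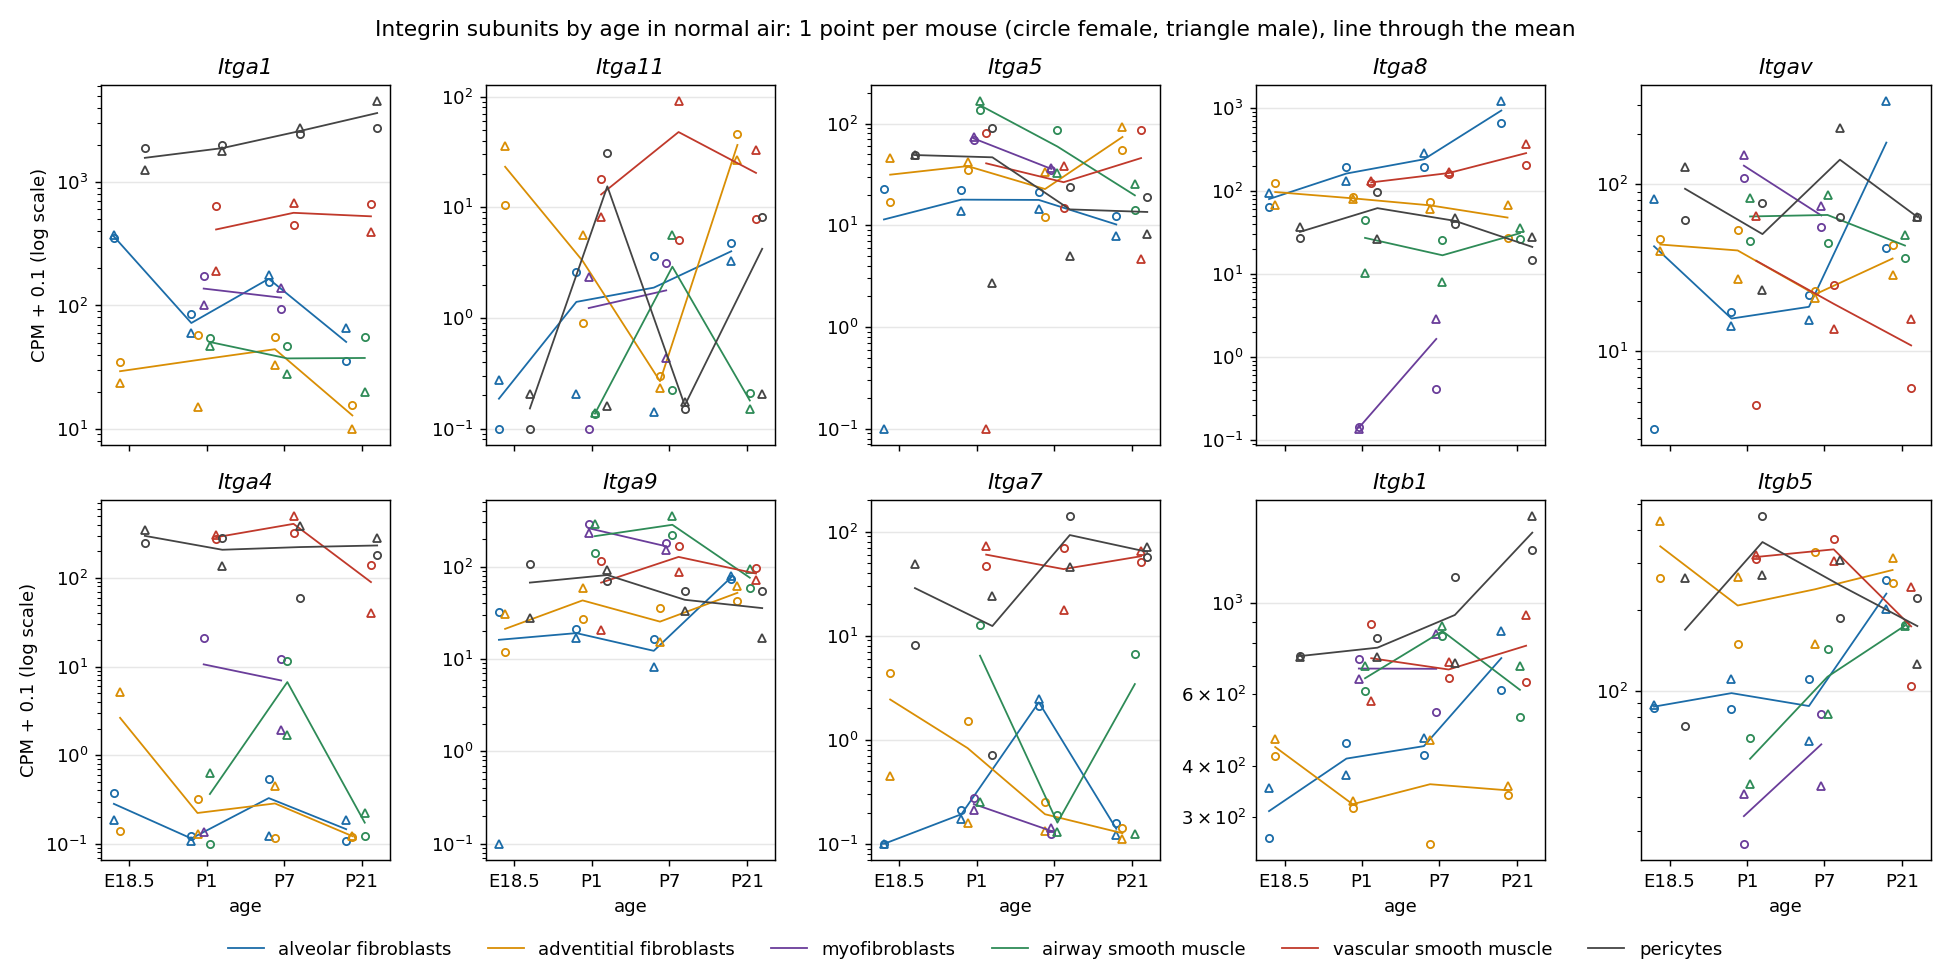
Integrin subunits by age in normal air in the 6 classes (TMM-normalized CPM + 0.1, log axis); each point is 1 mouse (circle female, triangle male), colours are classes and lines run through the mean. Itga8 of alveolar fibroblasts is at 64.1 to 95.8 CPM at E18.5 and 662 to 1208 CPM at P21, and Itga9 of airway smooth muscle is at 58.5 and 92.9 CPM at P21, below all its P1 and P7 values.

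In hyperoxia Itga8 was lower in both kinds of fibroblast without passing the test. Alveolar fibroblasts held 124 and 138 CPM against 196 and 286 CPM in normal air at P7 (log2 change -0.86, adjusted p 1). Adventitial fibroblasts held 27.3 and 16.0 CPM against 74.4 and 59.9 CPM (log2 change -1.65, SE 0.569, adjusted p 0.621). In both classes the groups did not overlap. The 4 mesothelial markers summed to 575 to 654 CPM in the hyperoxic adventitial libraries, against 0.0648 to 208 CPM in the P7 libraries in normal air, and their part in the adventitial values was not tested.

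Outside these classes Itga8 changes rested on few cells. In airway smooth muscle it was 25.5 and 7.88 CPM at P7 and 26.3 and 35.5 CPM at P21 (log2 change 1.40, SE 1.16, adjusted p 0.726), but 1 cell gave 99.6% of the P21 male's reads, and without the cell with most reads in each library the change was -0.55. Hyperoxic airway muscle held 11.9 and 2.35 CPM (log2 change -1.36, SE 1.13, adjusted p 1), and all reads of the male came from 1 cell. Pericytes held 40.3 and 47.0 CPM at P7 and 14.6 and 27.6 CPM at P21, without overlap (log2 change -1.04, SE 1.43, adjusted p 1).

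Itgav encodes the αv subunit, which takes part in the release of active TGF-β from its latent form. It was broad: in 47 of 50 class libraries it reached 10 CPM, and neighbours in the order of subtypes overlapped from the highest, alveolar fibroblasts at P21, to the tenth, the male hyperoxic fibroblasts, a label of 55 cells of 1 mouse. Alveolar fibroblasts held 21.5 and 15.2 CPM at P7 and 41.4 and 314 CPM at P21 (log2 change 2.71, SE 1.44, adjusted p 0.749). Both P21 mice were higher, but the male far more than the female, and 1 cell gave 42.6% of that male's reads. Myofibroblasts, in which Itgav was found in a median of 69.7% of thinned cells (69.0% before thinning), held 109 and 149 CPM at P1, 55.5 and 74.5 CPM at P7 and 86.0 and 116 CPM in hyperoxia (log2 change -0.99 from P1 to P7, adjusted p 0.588).

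Mural cells showed Itgav unevenly. Vascular smooth muscle held 24.9 and 13.5 CPM at P7 and 5.90 and 15.6 CPM at P21 (log2 change -1.41, SE 1.76, adjusted p 0.900). Pericytes held 77.4 and 23.1 CPM at P1, 63.6 and 217 CPM at P7 and 63.4 and 64.0 CPM at P21, with log2 changes of 1.31 (SE 1.10, adjusted p 1) and -1.05 (SE 1.04, adjusted p 0.990). At P7 a single cell gave 82.4% and 87.5% of the pericyte reads, and without the cell holding most reads in each library the change to P21 was 1.16, of the opposite sign.

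Itga4 encodes a subunit that binds VCAM-1 and fibronectin. It marked the vessel wall: vascular smooth muscle held 40.0 to 501 CPM (median 268) and pericytes 60.7 to 396 CPM (median 257), and these ranges overlapped. The next subtype, the precursor of myofibroblasts and smooth muscle, held 21.3 and 17.8 CPM, below both. Early alveolar fibroblasts held at most 0.445 CPM in 8 mice, and the later airway smooth muscle label at P21 at most 0.109 CPM.

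Vascular Itga4 was 273 and 302 CPM at P1, 321 and 493 CPM at P7 and 139 and 39.9 CPM at P21. The P21 mice were below all others in normal air, with a log2 change from P7 of -2.40 (SE 0.731, adjusted p 0.518, DESeq2 0.0286, 8 other settings up to 0.533). In the P21 male, whose library held 19 cells, 1 cell gave 73.5% of the reads. Hyperoxia gave 244 and 104 CPM, below both P7 mice in normal air (log2 change -1.40, SE 0.701, adjusted p 1). Pericytes held 245 and 351 CPM at E18.5, 279 and 136 CPM at P1, 59.4 and 386 CPM at P7 and 182 and 282 CPM at P21, and their groups overlapped throughout.

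Itga9 encodes the α subunit of a receptor for tenascin C and VCAM-1. It was the counterpart of Itga8 in myofibroblasts, airway smooth muscle and their precursor, while vascular smooth muscle held both. Precursors of myofibroblasts and smooth muscle held 366 and 463 CPM at E18.5, above every other subtype, while fibroblast precursors held 17.7 and 18.1 CPM. Early airway smooth muscle held 139 to 352 CPM in 6 mice and myofibroblasts 121 to 258 CPM in 6 mice. After thinning, a median of 76.6% of airway and 67.8% of myofibroblast cells held an Itga9 read, against 13.9% of alveolar fibroblasts (79.8%, 71.4% and 18.3% before thinning).

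In airway smooth muscle Itga9 fell between P7 and P21. It was 140 and 287 CPM at P1, 218 and 348 CPM at P7 and 58.5 and 92.9 CPM at P21, so the P21 mice were below all others. The log2 change was -1.90 (SE 0.364), with an adjusted p of 0.0476 in edgeR's quasi-likelihood test and log2 changes of -1.89 within females and -1.90 within males. Over 9 other settings the adjusted p ran from 3.81e-05 to 0.190, with a call in 7, and without any 1 of the 8 mice from 0.0767 to 0.330, with no call. In the P21 male 1 cell gave 69.4% of the reads, and without the cell holding most reads in each library the P21 mice held 43.6 and 28.4 CPM and the P7 mice 204 and 296 CPM.

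The airway libraries changed in other ways at the same age. All P7 cells carried the early airway label and nearly all P21 cells the later one, and the 6 airway markers summed to 17000 to 20950 CPM at P7 and 8958 to 9749 CPM at P21. The 7 adventitial markers summed to 231 to 274 CPM at P7 and 2950 to 4230 CPM at P21, where 2 of them were at 0 against 1 to 3 at P7. The part of these differences in the fall of Itga9 was not tested.

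Elsewhere Itga9 changes did not pass the test. Alveolar fibroblasts held 16.3 and 8.02 CPM at P7 and 73.5 and 79.6 CPM at P21, without overlap (log2 change 2.87, SE 1.95, adjusted p 0.817), and 24.0 and 20.5 CPM in hyperoxia, also above the P7 mice (log2 change 1.02, SE 1.83, adjusted p 1). Adventitial fibroblasts held 11.9 and 30.3 CPM at E18.5 and 26.9 and 59.0 CPM at P1 (log2 change 1.04, SE 0.706, adjusted p 0.652). Vascular smooth muscle held 114 and 20.4 CPM at P1 and 167 and 86.9 CPM at P7 (log2 change 1.11, SE 0.920, adjusted p 0.991), and pericytes 69.1 and 92.8 CPM at P1 and 54.4 and 32.9 CPM at P7 (log2 change -1.08, SE 1.18, adjusted p 1). Only the last of these pairs of groups, and the alveolar ones, did not overlap.

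Itga7 encodes the laminin-binding subunit of muscle. Its highest value, 253 CPM, was in the labelled striated muscle, a library of 16 cells of 1 mouse in which 6.25% of cells, 1 cell, held a read. Vascular smooth muscle followed with 18.0 to 146 CPM and pericytes with 0.604 to 143 CPM, which overlapped, and every other subtype had a median under 1 CPM. Cells under the later airway label held at most 0.0273 CPM, and the whole airway class at P21 6.63 and 0.0250 CPM.

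Vascular Itga7 was 46.9 and 72.8 CPM at P1, 69.2 and 17.7 CPM at P7, 51.1 and 64.5 CPM at P21 and 138 and 74.9 CPM in hyperoxia, where both mice were above those in normal air at P7 (log2 change 1.37, SE 1.03, adjusted p 1). Pericytes held 8.01 and 49.0 CPM at E18.5, 0.614 and 23.9 CPM at P1, 139 and 45.4 CPM at P7 and 57.2 and 70.2 CPM at P21. The log2 changes were -1.48 at P1 (SE 1.59, adjusted p 0.929) and 4.12 at P7 (SE 1.98, adjusted p 1). At P7 a single cell gave 82.0% and 83.3% of the pericyte reads of Itga7.

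Itgb1 encodes the common β1 partner and was the member found in most cells. In every class a median of 84.4 to 99.2% of thinned cells held a read (87.4 to 100% before thinning), and no more than 40.4% of a library's reads came from 1 cell. Its 19 log2 changes lay between -0.81 and 0.70, and none reached 1 in size. Pericytes ran from 729 to 1783 CPM, and early adventitial fibroblasts, among the lower subtypes, from 233 to 481 CPM. In airway smooth muscle Itgb1 was 831 and 876 CPM in normal air at P7 and 384 and 615 CPM in hyperoxia, without overlap (log2 change -0.81, unadjusted p 0.0295 and adjusted p 1 in edgeR's quasi-likelihood test).

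Itgb5 encodes a β partner of αv. Adventitial fibroblasts at P21 held 283 and 331 CPM, vascular smooth muscle 109 to 380 CPM and pericytes 72.2 to 441 CPM, and these overlapped, whereas myofibroblasts, at 24.0 to 109 CPM, had the lowest median apart from striated muscle. Alveolar fibroblasts held 110 and 64.9 CPM at P7 and 258 and 203 CPM at P21, without overlap (log2 change 1.40, SE 0.550, adjusted p 0.673). Airway smooth muscle held 66.5 and 44.6 CPM at P1, 143 and 82.0 CPM at P7 and 176 and 174 CPM at P21, each age above the one before.

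Hyperoxic airway muscle was back at 66.0 and 38.3 CPM of Itgb5, below both P7 mice in normal air (log2 change -1.11, SE 0.446, adjusted p 1). In vascular smooth muscle Itgb5 was 370 and 305 CPM at P7 and 104 and 244 CPM at P21 (log2 change -1.05, SE 0.585, adjusted p 0.746), without overlap. Pericytes held 73.7 and 264 CPM at E18.5 and 448 and 271 CPM at P1, again without overlap (log2 change 1.19, SE 0.763, adjusted p 0.845).

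**Figure D3:**
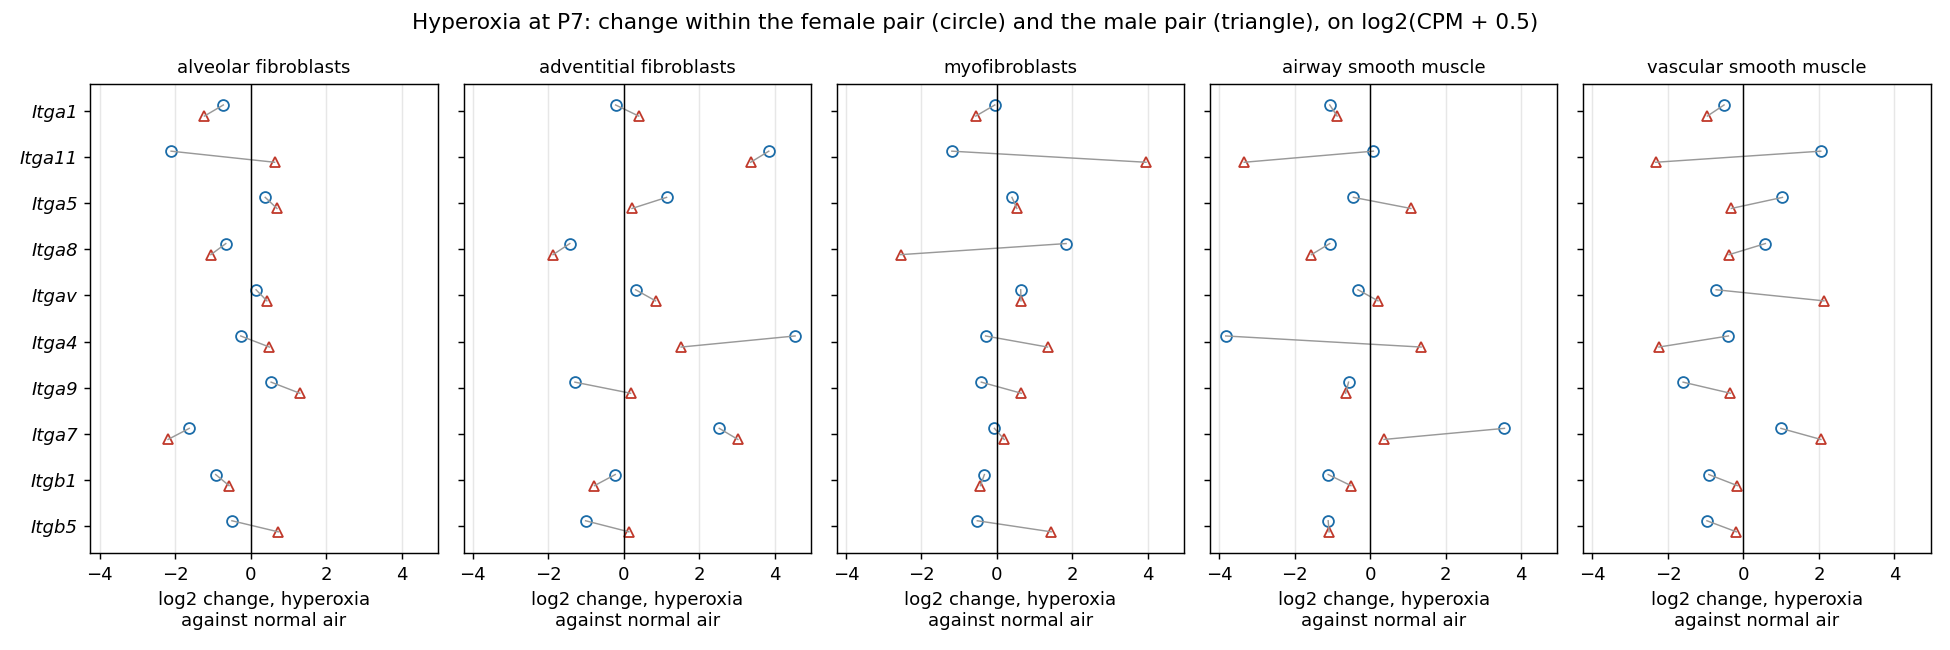
Change of each integrin subunit in hyperoxia against normal air at P7, as the log2 change of CPM + 0.5 within the female pair (circle) and the male pair (triangle), with a line joining both, in the 5 classes with enough cells. Both pairs lie below 0 for Itga8 of adventitial fibroblasts (-1.43 and -1.87) and Itgb5 of airway smooth muscle (-1.11 and -1.09), while for Itga11 of vascular smooth muscle they have opposite signs (2.05 and -2.32).

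In total 71 of the 185 tested changes were at least 1 in size. Of these, 29 compared groups that both averaged under 10 CPM (at most 7.79 CPM), 10 for Itga4, 11 for Itga7, 7 for Itga11 and 1 for Itga8. They ran from -8.09 to 6.98, with adjusted p of 0.439 or more in edgeR's quasi-likelihood test. The other 114 changes were smaller than 1. Whether a member's change differed between the classes was tested jointly over the classes of a comparison. No member was called: the lowest adjusted p was 0.692 for Itga8 at P7 against P1 (0.172% of all genes called), 0.331 for Itga9 at P21 against P7 (0.199%) and 0.378 for Itga7 in hyperoxia (0.106%). With an unadjusted p under 0.05 there were 2 (6.21% of all genes), 5 (6.99%) and 2 members (7.65%). DESeq2's likelihood ratio test called 1, 4 and 1, and 862, 951 and 874 genes in all.

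**Figure D4:**
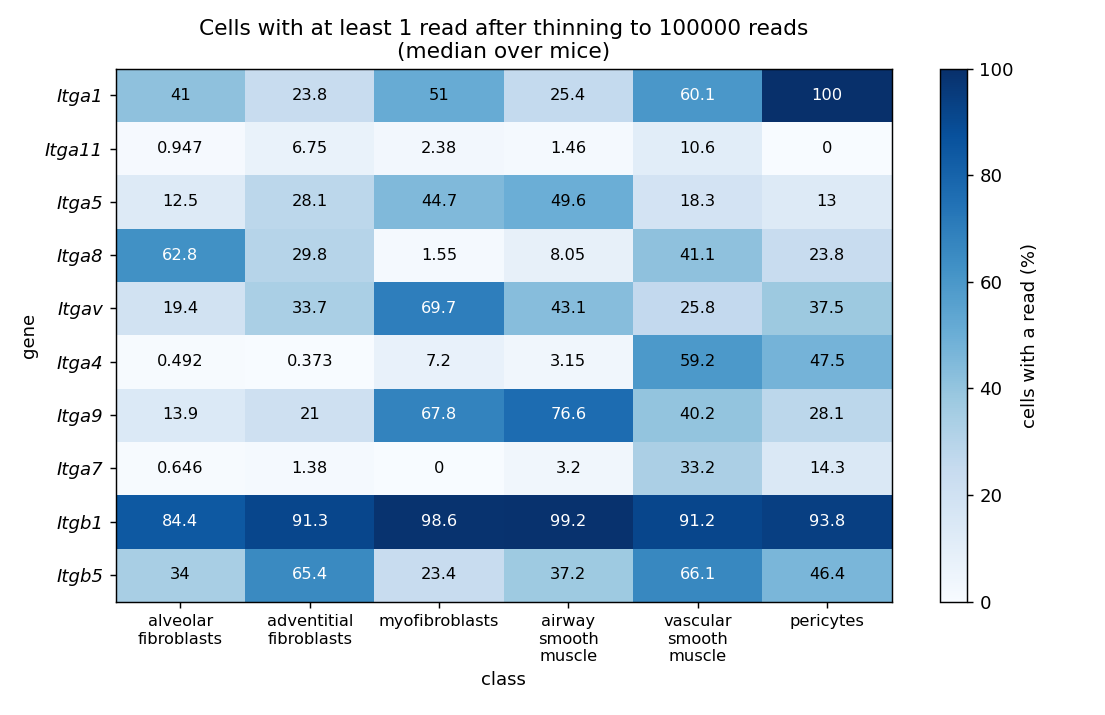
Median share of cells with at least 1 read of each integrin subunit in the 6 classes, after thinning every cell to 100000 reads (percent, colour scale and printed value). Itgb1 is found in 84.4 to 99.2% of cells of every class, Itga1 in 100% of pericytes and Itga8 in 1.55% of myofibroblasts against 62.8% of alveolar fibroblasts.

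The mixture of α subunits in a library was described by the share of each in the summed TPM of all 18 α subunits of the table. Itga8 led in 15 of 50 libraries, Itga1 in 14, Itga9 in 13, Itga5 in 6, and Itga4 and Itga6 in 1 each. Counted by reads without length, Itga1 led in 19, Itga8 and Itga9 in 14 each, Itga5 in 2 and Itga4 in 1, and the leader was the same in 43 libraries. Itga1 has the longest exon sequence of the members, 18599 bases against 4933 for Itga5, so reads alone favour it.

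In alveolar fibroblasts Itga1 led at E18.5, with 34.5% and 47.7% of α subunit TPM, and Itga8 at all later ages, reaching 78.6% and 76.4% at P21. Pericytes were led by Itga1 at every age, from 55.4% and 43.7% at E18.5 to 75.9% and 79.6% at P21. Airway smooth muscle at P7 was led by Itga9 with 49.0% and 67.5%, and myofibroblasts at P7 with 54.0% and 46.2%. In adventitial fibroblasts the leader differed between groups. At E18.5 it was Itga8 in the female and Itga5 in the male, and at P1 and P7 Itga8 in both mice (41.5% and 31.7% at P7). Itga5 led in both mice at P21 (28.4% and 39.6%) and in hyperoxia (23.4% and 27.8%), where Itga1 led by reads without length. Vascular smooth muscle was the most mixed, and at P7 Itga1 held 20.4% and 25.3%, Itga4 19.6% and 24.3% and Itga8 18.4% and 16.0%. Among β subunits Itgb1 and Itgb5 took nearly all TPM, and the other 7 held at most 3.98%.

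**Figure D5:**
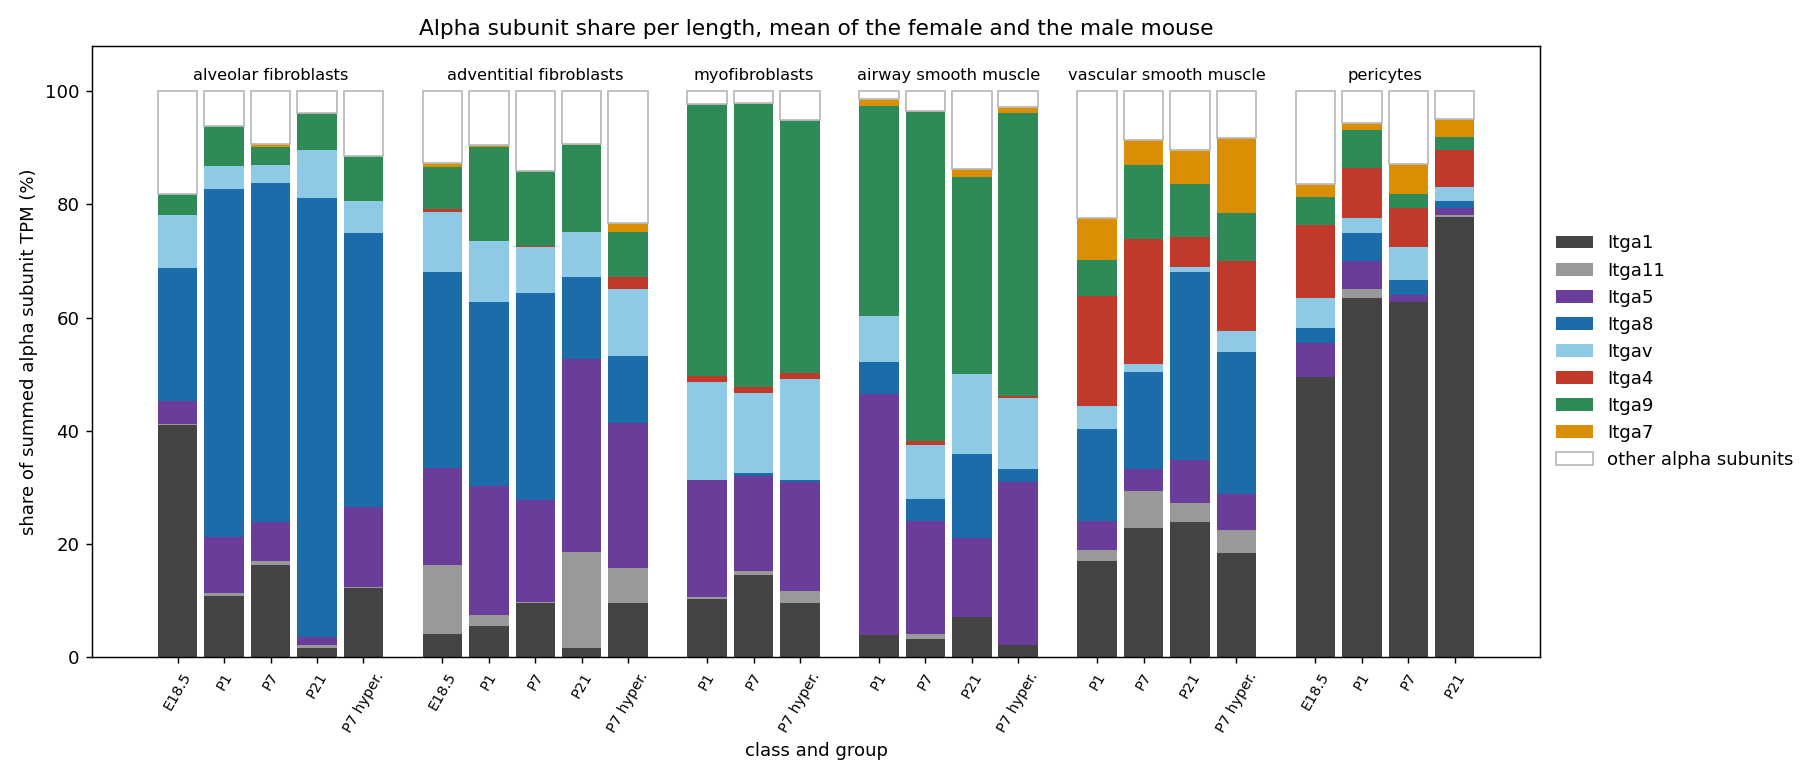
Share of each α subunit in the summed TPM of all α subunits, as a stacked bar for the mean of the female and the male mouse in each class and group (percent). Alveolar fibroblasts at P21 are 77.5% Itga8 and pericytes at P21 77.7% Itga1, while adventitial and vascular libraries are divided among several subunits.

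The genes most alike to each member were read from Pearson's r of log2(CPM + 1) over the 50 class libraries, among 9266 genes; the libraries share mice, runs and classes, so r is a description. Itga1 was nearest to Gucy1a1 (r = 0.925), a subunit of soluble guanylate cyclase, and to Higd1b (0.901), a pericyte marker. Itga4 was nearest to Gja4 (0.901), a connexin of the vessel wall, and to Trarg1 (0.890), which also led for Itga7 (0.867, then Parm1 with 0.817). For the fibroblast and contractile subunits the values were lower: Itga8 with Plxdc2 (0.796) and Stbd1 (0.785), Itga9 with Ckb (0.833) and Coro1c (0.775), Itga5 with Nkd1 (0.703) and Fasn (0.702), and Itga11 with Prss23 (0.675) and Wisp2 (0.619). Itgav was nearest to Sdc2 (0.649) and Yeats4 (0.648), Itgb1 to Arhgap42 (0.737) and Agpat5 (0.727), and Itgb5 to C1s1 (0.752) and Ebf1 (0.715). Between members r was highest for Itga4 with Itga1 (0.798), Itga7 with Itga4 (0.780) and Itga7 with Itga1 (0.696), the subunits of vessel wall cells.

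Of the other 17 integrin subunits Itga6, a laminin receptor subunit, reached the highest level, in vascular smooth muscle and pericytes. Pericytes held 57.7 to 291 CPM of Itga6 in all 8 mice on the scale of library totals, with 270 and 217 CPM at E18.5, 69.1 and 82.4 CPM at P1, 291 and 213 CPM at P7, and 57.7 and 168 CPM at P21. Its share of α subunit TPM in pericytes was 15.5% and 16.4% at E18.5 and 15.9% and 9.67% at P7. Vascular smooth muscle was uneven, with 321 and 92.6 CPM at P1, 69.1 and 1.34 CPM at P7, 24.7 and 0.0484 CPM at P21 and 14.0 and 45.2 CPM in hyperoxia. In the P1 female Itga6 led the vascular α subunits with 22.5%. Over all classes Itga6 reached 10 CPM in 19 of 50 libraries. Itgb3 did so in 16, Itgb8 in 14, Itga2b in 9, Itga3 in 8, Itga2 in 6, Itga10 in 4, Itgb6 in 2 and Itgal in 1, and the remaining 8 in none. Itgal, a leukocyte subunit, was at 33.6 CPM in that 1 library and at a median of 0.0137 CPM over the 50. Other leukocyte subunits were lower. The highest values of Itgb7, Itgb2, Itgae, Itgad, Itgam, Itgb2l and Itgax were 3.54, 3.35, 0.599, 0.333, 0.0994, 0.0737 and 0.0378 CPM. None of the 3 to 13 other subunits that could be tested was called by edgeR's quasi-likelihood test in any of the 19 comparisons, and at most 2 had an unadjusted p under 0.05 in 1 direction. Over all genes 0 to 6.16% were called, and 2.36% to 21.0% had such a p in either direction.

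Among 29 genes for integrin ligands 6 changes with age passed the test. In airway smooth muscle at P21 against P7, 1 of 26 tested ligand genes rose and 2 fell (median log2 change -0.92, against -0.09 over all genes). Of all genes 1.13% were called in this comparison. Tnc, encoding tenascin C, was 1476 and 1299 CPM at P7 and 124 and 181 CPM at P21 (log2 change -3.20, adjusted p 0.00579). Postn, encoding periostin, went from 1591 and 1114 CPM to 57.5 and 68.9 CPM (log2 change -4.44, adjusted p 0.00302), while Thbs1, encoding thrombospondin 1, rose from 1501 and 1254 CPM to 6087 and 5104 CPM (log2 change 2.02, adjusted p 0.0194). These are the libraries in which Itga9 fell, and which also differed in label and in their airway and adventitial marker sums, as given above. Neither a link of the ligand genes to Itga9 nor the part of those differences was tested.

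Eln, encoding elastin, was the 1 of 28 ligand genes that rose in alveolar fibroblasts at P21, from 641 and 448 CPM to 5112 and 4926 CPM (log2 change 3.21, adjusted p 0.0415), and the list's median was 0.85 against -0.04 over all genes. Postn was the 1 of 29 that fell in adventitial fibroblasts at P21, from 2735 and 2681 CPM to 247 and 156 CPM (log2 change -3.78, adjusted p 0.0462), with a list median of 0.24 against 0.10. Fn1, encoding fibronectin, was the 1 of 28 that fell in pericytes at P21, from 189 and 70.3 CPM to 0.749 and 0.122 CPM (log2 change -8.36, adjusted p 0.00547), with a list median of 0.64 against 0.20. Of all genes 0.0702% were called in this alveolar, 0.124% in this adventitial and 0.0504% in this pericyte comparison. In the other 15 comparisons no ligand gene was called by edgeR's quasi-likelihood test, and 0 to 9 of them had an unadjusted p under 0.05 in 1 direction. Over all genes 0 to 6.16% were called there, and 2.36% to 21.0% had such a p in either direction.

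The 27 adaptor genes, which tie integrins to the actin skeleton or modulate them, were represented by 26 rows and gave no call by edgeR's quasi-likelihood test within any class, with 0 to 5 at an unadjusted p under 0.05 in 1 direction. Over all genes 0 to 6.16% were called, and 2.36% to 21.0% had such a p in either direction. In the joint test between classes the ligand genes Tnc, Fbln5, Ltbp1 and Col1a1 (adjusted p 0.00182, 0.00264, 0.00560 and 0.0252) and the adaptor Lims1 (0.0252) changed differently between classes from P1 to P7, and Postn (0.00521) from P7 to P21. Of all genes 0.172% and 0.199% were called in these joint tests.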

How the data were processed

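Gene counts per single cell were used as deposited by the authors. Reads were aligned with STAR 2.5.2b and counted with HTSeq 0.10, and the genome build is named as GRCh38, all per the submitters' processing notes; since GRCh38 is a human build name and the genes carry mouse symbols, no coordinates are given. Groups and cell subtypes came from the labels. The 10 members and the gene lists were chosen with earlier results of these data known.

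Counts were summed per mouse and class or subtype (at least 10 cells), scaled by TMM, and tested in R 4.3.3 with edgeR 4.0.16, with limma 3.58.1 (voom, trend) and DESeq2 1.42.0 as alternatives. Each class was fitted with all its groups and a sex term, which pairs the female and the male mouse across groups by their label. CPM by subtype are scaled over all subtype libraries, and CPM beside a test within the class. TPM used exon lengths of GENCODE M21 (GRCm38), matched by symbol for 18017 of 18072 genes. Within-sex changes used log2(CPM + 0.5). The joint test between classes kept the mouse as a block. Steps were tested on simulated data.

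Named were all members, the 2 genes most alike to each by r (genes averaging at least 10 CPM over the class libraries), and list genes called, up to 4 per comparison. A member's change was given where called or at least 1 in size on the log2 scale, except that changes between groups both averaging under 10 CPM are given as a range. Over libraries of zero reads, the upper limit is 3 reads, and it covers counting error only.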

Additional observations from a re-analysis of the deposited data

How the results depend on the processing

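Each within-class count of called members was recomputed under up to 10 other settings. Leaving out the cell with most reads, chosen after seeing the data, gave levels and log2 changes only, and no call was retested without that cell. The sex term is the replicate block of this design. With no replicate block, 1 alveolar member was still called at P1 against E18.5 (Itga1, adjusted p 0.0219 in edgeR's quasi-likelihood test), and airway smooth muscle at P21 had 0 in place of 1; no other count of members moved. The alveolar call at P1 became 0 with limma voom, with no filter on low counts, with only the 4 mice compared and with limma trend, and leaving out 1 mouse gave 0 to 3. The 3, without the E18.5 female, were Itga1, Itga5 and Itga9. E18.5 was then the male library of 24 cells, which held no read of Itga5 or Itga9, so their log2 changes of 14.29 and 14.50 depend on the prior count. Where leaving out 1 mouse leaves a group with 1 library, that library is assumed to vary like the other groups. The airway call at P21 became 0 with only the 4 mice compared and in all fits without 1 mouse (0 to 0), and DESeq2 gave 2. Elsewhere DESeq2 called 1 alveolar member at P7, 3 at P21, 1 adventitial member at P7, 3 at P21 and 1 in hyperoxia, and 1 vascular member at P21, where edgeR called 0. Alveolar P21 had 1 with voom and 1 with limma trend, and adventitial P21 0 to 1 without 1 mouse. The joint test between classes had 1, 4 and 1 with DESeq2.

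Signs reversed for members carried by few cells. Leaving out 1 mouse gave ranges of -0.11 to 14.29 for Itga5 in alveolar fibroblasts at P1, -0.13 to 2.36 for Itga8 in airway muscle at P21, -1.48 to 11.81 for Itga5, -1.34 to 2.77 for Itga11 in vascular muscle at P7, and -2.13 to 1.91 for Itga11 and -2.49 to 0.78 for Itgav at P21. In pericytes they were -3.75 to 0.16 for Itga5 at P1, -2.34 to 1.58 for Itga5 and -1.81 to 0.11 for Itga9 at P7, and -1.87 to 0.10 for Itgav at P21. Without the cell with most reads, Itga8 in airway muscle at P21 was -0.55, Itga5 in vascular muscle at P7 -0.56, and in pericytes Itga5 at P1 0.43, Itgav at P21 1.16 and Itga11 0.00 at P1 and 0.05 at P7. Vascular Itga5 at P7 was -0.62 with no replicate block, and with limma trend vascular Itga11 at P7 was -0.07 and Itgav at P21 0.53. The cause was not tested.

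Over all genes the calls at P1 in alveolar fibroblasts numbered 966, and from 11 (only the 4 mice) to 3603 (DESeq2) elsewhere, or 0 to 4846 without 1 mouse. For airway muscle at P21 they numbered 152, and 60 to 1163 or 45 to 261. Other settings gave 9 to 1060 at P21 in alveolar fibroblasts (11 as reported), 0 to 787 at P1 and 5 to 852 at P21 in adventitial fibroblasts (26 and 19), 9 to 833 at P21 in vascular muscle (11), 0 to 655 at P1 and 3 to 440 at P21 in pericytes (5 and 6), and 26 to 862, 33 to 951 and 12 to 874 in the joint tests (27, 31 and 17), DESeq2 giving the highest each time. Where edgeR called 0 genes, DESeq2 called 126 to 688. Leaving out 1 mouse gave 0 to 615 genes in myofibroblasts at P7 (the highest without the P1 female) and 0 to 324 in hyperoxia (without the P1 male), 0 as reported for both. It gave 0 to 163 in alveolar fibroblasts at P21, 5 to 55 at P1 and 1 to 72 at P21 in adventitial fibroblasts, 4 to 20 in vascular muscle at P21, 1 to 15 at P1 and 0 to 18 at P21 in pericytes, and 9 to 29, 2 to 21 and 0 to 177 in the joint tests. In the other comparisons with 0 calls it gave at most 3. A minimum of 20 cells per mouse could not be fitted for alveolar and pericyte P1 against E18.5 nor for vascular muscle at P7 and P21.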
